A study of Homo sapiens with 18 samples.

Results

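Thrombin is the clotting protease, and hepatic stellate cells are the pericytes of the liver that turn into matrix-producing myofibroblasts in fibrosis. The data described here compare LX-2 cells, an established human stellate cell line, held with thrombin for 48 h with LX-2 cells held for 48 h without it. The members are 6 of the 18 bulk RNA-seq libraries of the series, 3 labelled thrombin 48 h and 3 labelled control 48 h, and they were chosen by those labels alone. Subcultures were grown for 48 h, kept for 1 h without serum, and then given thrombin at 1 U/mL in the first group or serum-free medium alone in the second, so both groups lacked serum. LX-2 is 1 line, and the labels do not say whether the libraries came from separate cultures. The libraries of each group carry the numbers 12, 13 and 14, and p-values measure only the spread between them, which may be technical.

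Thrombin acts on cells by cutting protease-activated receptors, G-protein-coupled receptors that carry their own ligand in the tail the protease exposes. F2R is the receptor most readily cut by thrombin, and its signal reaches calcium, ERK, serum response factor, YAP and AP-1. A cut receptor cannot be used again and is taken into the cell.

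Total counts ranged from 14431044 to 19349937 in the thrombin libraries and from 17317519 to 19099178 in the control libraries, and 15353 of 28278 genes had enough counts to be tested. The stellate label was checked against 20 markers. VIM, SPARC, FN1, PDGFRB and NGFR were present, while DCN, LUM, LRAT and CYGB each had at most 7 counts in any 48 h library. The hepatocyte genes APOH, TTR, FGA and FGG, the liver endothelial genes LYVE1 and CLEC4G and the leukocyte genes CD163, VSIG4, CD3E and TYROBP had 0 counts in all 6 libraries. The 17 hepatocyte markers summed to 6.58 to 10.3 CPM (counts scaled to a fixed library total) in thrombin libraries and 6.36 to 8.14 CPM in control libraries, while the 14 macrophage and leukocyte markers, mostly CD68, summed to 81.6 to 91.8 CPM in thrombin libraries and 71.2 to 80.5 CPM in control libraries. Other endothelial markers had counts, led by TIE1. The 13 endothelial markers summed to 66.0 to 72.6 CPM in thrombin libraries and 60.6 to 73.2 CPM in control libraries. The 9 cholangiocyte and epithelial markers, led by SOX9, KRT8 and KRT18, summed to 325 to 347 CPM in thrombin libraries and 315 to 346 CPM in control libraries. The 24 h libraries used for comparison raise a doubt about labels. Of the 961 genes called at both 4 h and 24 h, 948 had opposite signs, and only 11 genes separated the group labelled thrombin 4 h from the group labelled control 24 h. Between the groups labelled thrombin 48 h and control 24 h 55 genes (0.358%) were called, against 940 (6.12%) between control 48 h and control 24 h. Between thrombin 48 h and thrombin 24 h there were 1492 (9.72%). Whether any labels were exchanged was not tested. Each 24 h or 48 h value below, and each difference between 48 h and 24 h, rests on the labels as given. The 4 h and 24 h libraries enter the 48 h comparison through the filter, the scaling factors and the estimate of spread, which all 18 libraries share.

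The comparison asks which transcripts still differ after 2 days of thrombin. No gene was called at 48 h by edgeR's quasi-likelihood test at an adjusted p under 0.05, in either direction (0% of tested genes higher and 0% lower). The smallest adjusted p was 0.0646. At an unadjusted p under 0.05 there were 1110 genes (7.23%), 652 higher (4.25%) and 458 lower (2.98%) with thrombin. Limma-voom also called 0 genes, with 651 higher and 480 lower at an unadjusted p under 0.05, whereas DESeq2 called 9 higher and 5 lower, and edgeR without the filter on low counts called 25 higher and 25 lower. All 50 genes called without the filter were genes that the filter kept, and why that fit called them was not tested. EdgeR with a stricter filter called 0 genes, and so did edgeR with RLE scaling in place of TMM. Without thrombin library 12, the counts at an unadjusted p under 0.05 were 400 higher and 235 lower, and without thrombin library 14 they were 791 and 696. The 3 thrombin libraries lay above all 3 control libraries for 1117 genes (7.28%) and below them for 1068 (6.96%). By the same test at 24 h, 1389 genes were called higher (9.05%) and 1311 lower (8.54%). The SD of the log2 fold change over the tested genes was 0.24 at 48 h and 0.43 at 24 h.

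How small a change could be bounded differed with the level of the gene. Each log2 fold change has a 95% confidence interval, and a gene is called bounded within a fold when an equivalence test (a pair of one-sided tests against that fold, up and down) gives an adjusted p under 0.05 over all tested genes. At 48 h, 13948 genes (90.8%) were bounded within 2-fold, 11839 (77.1%) within 1.5-fold and 5279 (34.4%) within 25% (0.32 on the log2 scale in either direction). Among the 2627 genes of at least 100 CPM, 99.2% were bounded within 1.5-fold, and their median interval reached 1.13-fold to either side. Among the 2074 genes of 3 to 10 CPM, 75.2% were bounded within 1.5-fold. Among the 1489 genes under 1 CPM, 0.0672% were, and 26.9% within 2-fold, so that for low genes a 2-fold change was mostly not excluded. By estimate 95 genes passed 2-fold, 57 higher and 38 lower. Their median level was 0.516 CPM, and 0 of them reached 10 CPM. Of all intervals, 31 lay wholly past 25%, 5 wholly past 1.5-fold and 0 wholly past 2-fold. The count within 25% was 0 without thrombin 13, thrombin 14 or control 13, and 2392 without control 12 and 2629 without control 14.

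**Figure D1:**
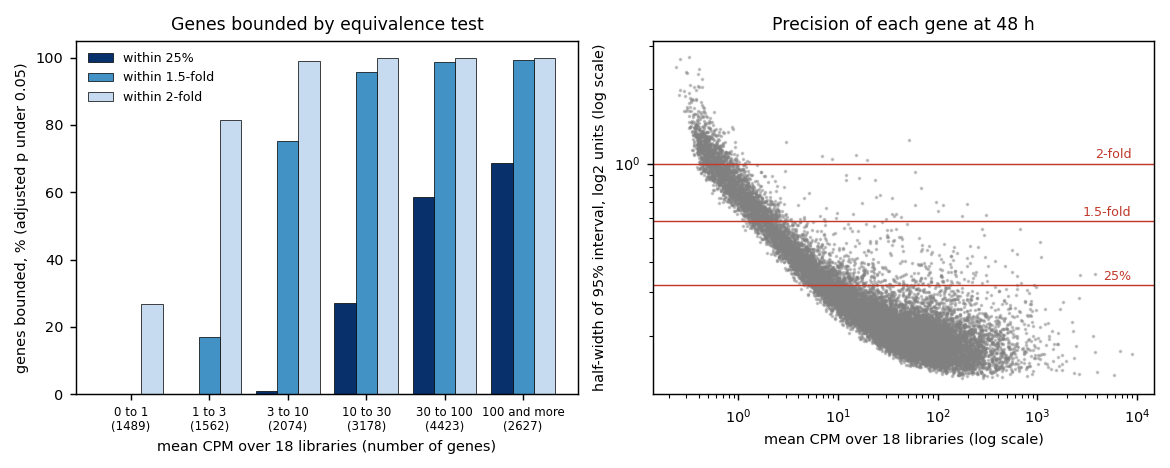
Left, the percentage of tested genes bounded within 25%, 1.5-fold and 2-fold at 48 h, by mean CPM over the 18 libraries, with the number of genes in brackets. Right, the half-width of the 95% interval of the log2 fold change of each gene (log scale) against its mean CPM (log scale), with lines at 25%, 1.5-fold and 2-fold. The share bounded within 1.5-fold goes from 0.0672% under 1 CPM to 99.2% from 100 CPM.

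Transcript GC content moved with the 48 h effect. Over 14577 genes with a GENCODE v29 transcript, r was 0.27 between GC and the log2 fold change, and the median effect was -0.08, -0.02, 0.04 and 0.09 in 4 equal groups of genes from lowest to highest GC. The relation differed between libraries: r was 0.47 for thrombin 12 over control 12, 0.14 for the libraries numbered 13 and -0.11 for those numbered 14. With an offset for GC in each library, which was chosen after the data were seen, 2 genes were called higher and 2 lower. COL4A5 and MME were higher, at edgeR adjusted p = 0.0120 and 0.0120, and TGFBI and IGFBP6 were lower, at 0.0411 and 1.61e-05. MME, the peptidase neprilysin, is named because the offset called it.

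The genes with the smallest p that were lower with thrombin were led by TGFBI (chr5:136028988-136063818, GRCh38), which encodes a secreted matrix protein induced by TGF-beta. Its levels were 238, 225 and 205 CPM in thrombin libraries 12, 13 and 14, against 394, 343 and 297 CPM in control libraries 12, 13 and 14. The groups did not overlap, and within both groups library 12 was highest and library 14 lowest. The log2 fold change was -0.63 ± 0.11 (SE, n = 3 each), with a 95% interval from -0.85 to -0.41. TGFBI was not called (edgeR adjusted p = 0.0646), though some alternative fits called it. DESeq2 gave an adjusted p of 0.000479, and the 6 libraries of 48 h fitted alone gave an edgeR adjusted p of 0.0161. Limma-voom did not call TGFBI, nor did edgeR with a stricter filter, with RLE scaling or without the libraries numbered 12. IGFBP6 (chr12:53097667-53102340), a binding protein of insulin-like growth factor II, measured 87.8, 86.7 and 85.6 CPM in thrombin libraries, against 115, 128 and 139 CPM in control libraries. The thrombin libraries were nearly level and all below control, with a log2 fold change of -0.56 ± 0.11 and an edgeR adjusted p of 0.101. At 24 h both genes were called higher with thrombin, by 1.32 for TGFBI and 1.05 for IGFBP6 on the log2 scale.

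NPPB, the gene of B-type natriuretic peptide, measured 0.925, 0.614 and 0.616 CPM with thrombin and 1.79, 1.34 and 2.47 CPM in control, a log2 fold change of -1.37 ± 0.35. MYPN, a protein of the muscle sarcomere, measured 4.01, 5.12 and 4.38 CPM with thrombin and 6.51, 9.24 and 7.12 CPM in control, a log2 fold change of -0.75 ± 0.19. CRISPLD2, a secreted protein, measured 9.81, 7.98 and 7.74 CPM with thrombin and 13.4, 12.3 and 11.4 CPM in control. None of the 3 was called at 48 h with the filter on low counts (edgeR adjusted p = 0.249, 0.265 and 0.256), whereas all 3 were without it (0.0149, 0.00410 and 0.0187). They were called higher at 24 h, with log2 fold changes of 4.17, 2.58 and 2.22. GCNT1, an enzyme that branches O-linked sugars, measured 80.9, 87.2 and 82.3 CPM with thrombin and 111, 122 and 102 CPM in control. NUP37, a subunit of the nuclear pore, measured 17.3, 21.5 and 22.2 CPM with thrombin and 27, 26.2 and 28 CPM in control. C20orf204 measured 1.73, 1.33 and 1.51 CPM with thrombin and 2.63, 2.83 and 3.31 CPM in control. The rule also gave the pseudogenes AURKAP1 and ANXA2P1, at log2 fold changes of -0.38 and -0.48. Their counts may hold reads of the parent genes AURKA and ANXA2, since how shared reads were divided is not known.

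Among the genes with the smallest p that were higher with thrombin, COL4A5 (chrX:108439838-108697545), a basement membrane collagen chain, measured 38.0, 37.2 and 38.5 CPM with thrombin and 29.5, 26.5 and 27.1 CPM in control. All thrombin libraries lay above all control libraries, with a log2 fold change of 0.45 ± 0.08 (SE, n = 3 each), a 95% interval from 0.28 to 0.62 and an edgeR adjusted p of 0.0768. OLFML2A (chr9:124777133-124814882), a secreted olfactomedin-domain protein, measured 95.6, 86.1 and 86.9 CPM with thrombin and 67.3, 65.5 and 58.3 CPM in control. Its log2 fold change was 0.49 ± 0.09, with an edgeR adjusted p of 0.0977. CDKN1A (chr6:36676463-36687332), the cyclin-dependent kinase inhibitor p21, measured 73.4, 67.6 and 72.3 CPM with thrombin and 48.3, 48.7 and 54.1 CPM in control. The groups were well apart for CDKN1A, at a log2 fold change of 0.50 ± 0.10, but the edgeR adjusted p was 0.139. DESeq2 called COL4A5, OLFML2A and CDKN1A, at adjusted p = 0.00171, 0.00330 and 0.0185, and edgeR without the filter called OLFML2A and CDKN1A, at 0.00423 and 0.00441. At 24 h these 3 genes were called lower with thrombin, by log2 fold changes of -0.61, -0.89 and -0.64.

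The other 7 had log2 fold changes from 0.38 for UAP1L1 to 1.14 for NPEPL1, and edgeR adjusted p from 0.139 to 0.217. PLEKHA4, a phosphoinositide-binding adaptor, measured 26.2, 25 and 24 CPM with thrombin and 17.0, 16.3 and 18.4 CPM in control. DOCK6, an activator of Rac1 and Cdc42, measured 18.2, 16.5 and 16.2 CPM with thrombin and 12.3, 10.8 and 12.4 CPM in control. NPEPL1, an aminopeptidase-like protein, measured 3.39, 3.17 and 2.88 CPM with thrombin and 0.945, 1.87 and 1.46 CPM in control. CSMD2, OLFML3, UAP1L1 and HS1BP3 also had every thrombin library above every control library. For 9 of the 10 higher genes and 9 of the 10 lower genes the effect differed between 48 h and 24 h (edgeR adjusted p under 0.05 for the difference), the exceptions being PLEKHA4 and C20orf204. The difference was called for 13.8% of all tested genes, and it contains the 48 h effect by which these 20 were chosen. Of the 20 genes DESeq2 called 13 and edgeR without the filter 14.

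**Figure D2:**
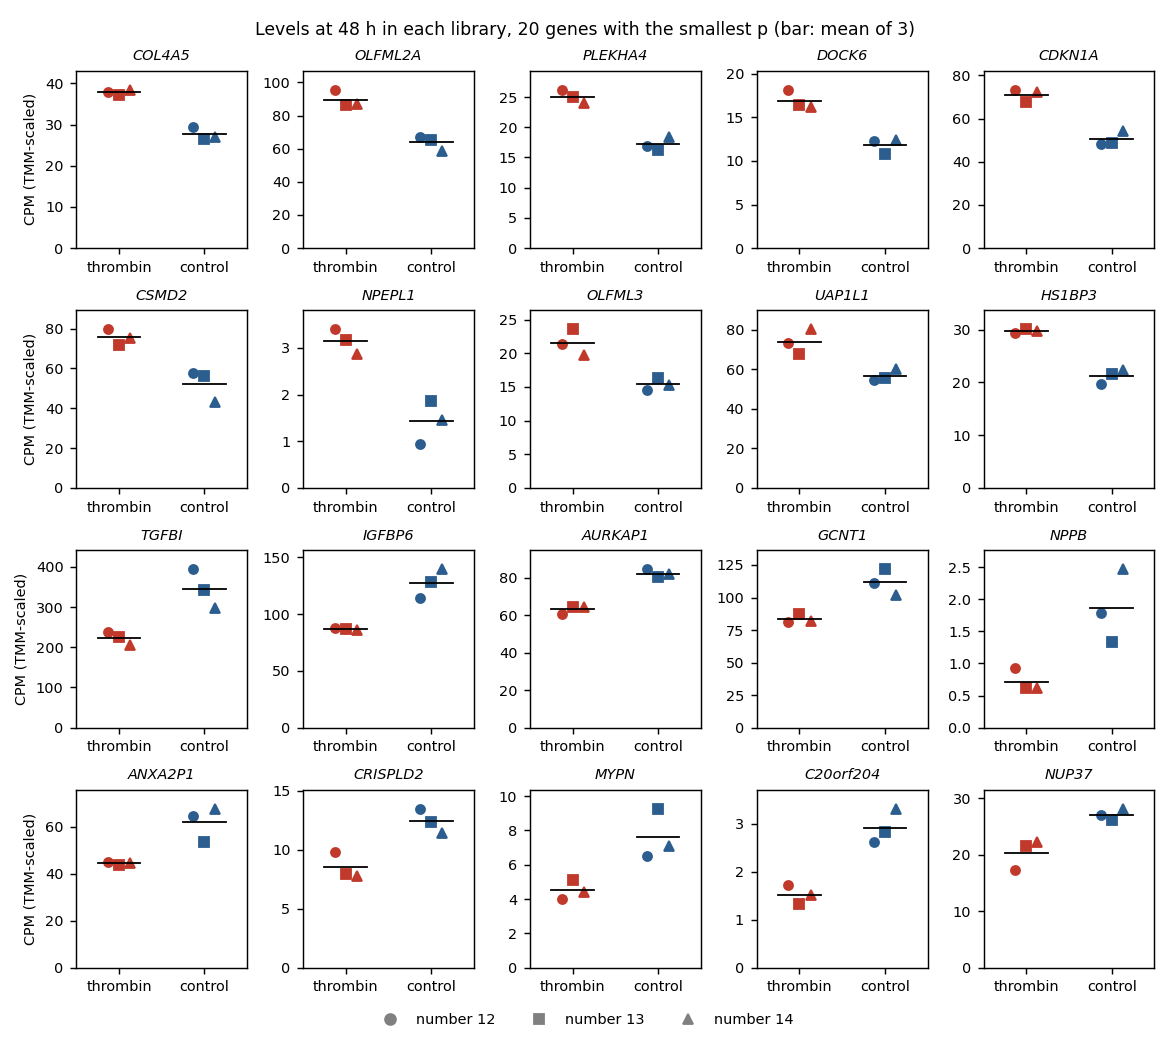
TMM-scaled CPM in each 48 h library of the 10 higher (top rows) and 10 lower (bottom rows) genes with the smallest p, thrombin left of control, with the marker shape giving the library number and the bar the mean of 3. The groups do not overlap in any panel, and edgeR called none of the 20 genes with the filter on low counts and 14 without it, while DESeq2 called 13. The genes were chosen by p in these same libraries, so the lack of overlap and the calls follow in part from the choice. Of all tested genes, 7.28% lay wholly above and 6.96% wholly below control.

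Of the thrombin receptors, F2R was measured at 200, 216 and 214 CPM with thrombin and at 194, 192 and 192 CPM in control. The thrombin libraries lay above control, but by a log2 fold change of 0.13 ± 0.08, with a 95% interval from -0.03 to 0.29, and F2R was bounded within 25% (edgeR equivalence adjusted p = 0.0345). At 24 h it was called lower, at -0.84. F2RL2, a receptor that helps thrombin reach its partner receptors, measured 0.555, 0.767 and 0.753 CPM with thrombin and 1.47, 1.44 and 2.02 CPM in control, which put F2RL2 at -1.23 ± 0.38 without a call (edgeR adjusted p = 0.428). F2RL1, the receptor mainly cut by trypsin-like proteases, had a log2 fold change of 0.26, between -0.18 and 0.71, and F2RL3 never exceeded 2 counts and fell outside the tested genes. SERPINE2, a thrombin inhibitor of the cell surface, was at 0.16 ± 0.10 and was bounded within 1.5-fold. THBD, the thrombin cofactor thrombomodulin, had a log2 fold change of 0.15 with an interval from -0.78 to 1.07.

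PLAT and F3, genes of clot removal and clot formation that were called higher at 24 h, had estimates below 0 at 48 h. PLAT, tissue plasminogen activator, measured 270, 268 and 278 CPM with thrombin and 313, 327 and 328 CPM in control, a log2 fold change of -0.25 ± 0.14 with no overlap and no call (edgeR adjusted p = 0.727). F3, the tissue factor that starts clotting, measured 77.6, 85.0 and 100 CPM with thrombin and 110, 94.1 and 115 CPM in control, where the groups overlapped and the log2 fold change was -0.28 ± 0.14. PLAU, urokinase, had a log2 fold change of 0.04 ± 0.13.

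Of 16 tested stellate cell and myofibroblast markers, 8 lay above 0 and 8 below at 48 h, with a median log2 fold change of 0.02. By edgeR 0 of them had an unadjusted p under 0.05, against 4.25% higher and 2.98% lower of all tested genes. Bounded within 1.5-fold were 9, against 77.1% of all tested genes. Markers such as PDGFRA, FAP, GFAP and HGF were of low level, and of tested genes of 1 to 3 CPM 17% were bounded within 1.5-fold. TAGLN, an actin-binding protein of contractile cells, measured 77.1, 63.4 and 53.2 CPM with thrombin and 94.1, 76.4 and 63.8 CPM in control. In both groups it was highest in library 12 and lowest in library 14, and the groups overlapped. Each thrombin library lay below the control library of its number, but the numbers did not pair the libraries. The log2 fold change of TAGLN was -0.27 ± 0.12 at 48 h, where it was not called (edgeR adjusted p = 0.640), and 2.52 at 24 h, where it was. ACTA2, smooth muscle actin, was at 0.18 ± 0.14 and bounded within 1.5-fold. COL1A1, the main fibrillar collagen chain, measured 2382, 1989 and 1813 CPM with thrombin and 2356, 2335 and 1993 CPM in control, a log2 fold change of -0.11 ± 0.10. COL1A2, its partner chain, was at 0.11 ± 0.19. TIMP1, an inhibitor of matrix proteases, was at -0.01 ± 0.09 and bounded within 25%. The YAP targets CCN1 and CCN2 were at 0.00 ± 0.09 and -0.04 ± 0.12, both bounded within 25%, whereas both were called higher at 24 h.

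The secreted signals CCL2, a monocyte chemokine, and HBEGF, a ligand of the EGF receptor, had log2 fold changes of 0.03 ± 0.22 and -0.16 ± 0.13 and were bounded within 1.5-fold. CXCL8, a neutrophil chemokine, spread from 5.80 to 12.6 CPM with thrombin and from 8.39 to 12.4 CPM in control, and its interval ran from -1.27 to 0.79. IL6 and EGR1, an inflammatory cytokine and an early transcription factor, had intervals from -0.74 to 1.14 and from -0.75 to 1.11. For CXCL8 and IL6 not even a 2-fold change was bounded.

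The genes called at 24 h mostly lay on the other side of 0 at 48 h, in libraries that the 24 h comparison did not use. Of the 1389 genes called higher at 24 h, 955 (68.8%) had a 48 h fold change below 0, with a median log2 fold change of -0.07, and 178 (12.8%) were lower at an unadjusted p under 0.05. Of the 1311 genes called lower at 24 h, 1078 (82.2%) lay above 0 at 48 h, with a median of 0.13, and 211 (16.1%) were higher at an unadjusted p under 0.05. Over all tested genes 52.4% lay above 0 and the median was 0.01. Across the 2700 genes, which are not independent, the 24 h and 48 h effects had r = -0.54, with a slope of -0.15. The effect at 48 h minus the effect at 24 h was called above 0 for 1100 genes (7.16% of those tested) and below 0 for 1026 (6.68%), and for 732 and 733 without control 24 h library 12.

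This was uneven over the numbered libraries. For genes called higher at 24 h the median difference of thrombin from control was -0.15 for libraries 12, -0.07 for libraries 13 and 0.01 for libraries 14. For genes called lower at 24 h it was 0.20, 0.12 and 0.05. The correlation with the 24 h effect was -0.50, -0.44 and -0.16 for the same pairs of libraries. With the GC offset the median of the genes called lower was 0.07 and the correlation -0.52. Without the libraries numbered 12 in every group the medians were -0.02 and 0.08 and the correlation was -0.37.

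**Figure D3:**
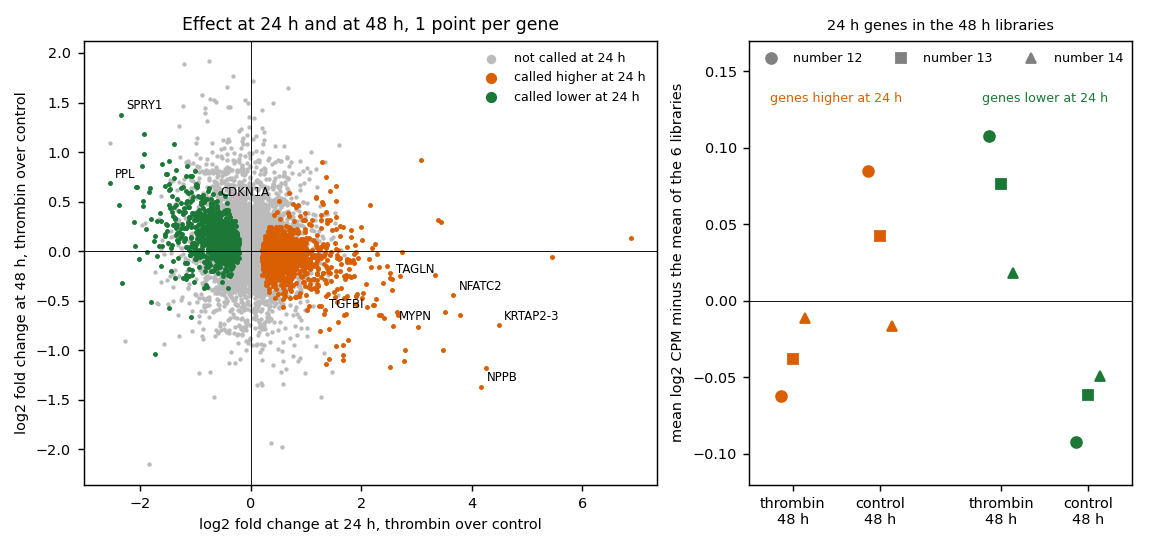
Left, the log2 fold change of thrombin over control at 48 h against that at 24 h for each of the 15353 tested genes, coloured by the call at 24 h, with some named genes. Right, the mean log2 CPM of the 1389 genes called higher and of the 1311 called lower at 24 h in each 48 h library, relative to the 6 libraries, thrombin left of control. The coloured points slope downwards (r = -0.54), and the libraries numbered 14 lie closest together.

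Among the 8 genes of at least 1 CPM with the largest rise at 24 h, KRTAP2-3, KRT33B and KRTAP1-5, of the hair keratin and keratin-associated families, had log2 fold changes of 4.48, 3.79 and 3.51 at 24 h and of -0.75 ± 0.49, -0.65 ± 0.50 and -0.61 ± 0.54 at 48 h. These families hold similar copies, so their levels are uncertain. NFATC2, a calcium-responsive transcription factor, measured 1.17, 2.35 and 2.46 CPM with thrombin at 48 h and 3.20, 2.35 and 2.63 CPM in control, and had a log2 fold change of 3.67 at 24 h. LINC01111, a long noncoding RNA, measured 0.617, 0.972 and 0.890 CPM with thrombin and 2.05, 1.87 and 1.06 CPM in control. RELN, the secreted matrix protein reelin, was the exception in sign, at 0.32 ± 0.35.

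Among the 8 genes of at least 1 CPM with the largest fall at 24 h, PPL, the desmosome-associated protein periplakin, measured 72.9, 63.8 and 46.1 CPM with thrombin at 48 h and 40.5, 40.3 and 32.8 CPM in control. All thrombin libraries lay above control, at 0.69 ± 0.24 on the log2 scale, without a call (edgeR adjusted p = 0.561). Without the filter edgeR called PPL (adjusted p = 3.42e-06) at a log2 fold change of nearly the same size, 0.66. SPRY1, a feedback inhibitor of ERK signalling, measured 2.34, 1.53 and 1.03 CPM with thrombin and 0.893, 0.374 and 0.617 CPM in control, a log2 fold change of 1.38 ± 0.49. PPARGC1A, a coactivator of mitochondrial genes, and KCP, a secreted regulator of BMP signals, were at 0.99 ± 0.42 and 0.86 ± 0.37. PPARGC1A was at 0.41 without thrombin library 14, and KCP at 1.34 without control library 14. GASK1B, LOC107985770 and METTL7A were between 0.32 and 0.51, and C3AR1, a complement receptor, was at 0.00 with an interval from -0.58 to 0.58. GASK1B was above 0 through 1 library, at 2.51 CPM in thrombin 13 against 1.11 and 1.16 CPM in the other thrombin libraries.

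Genes of mitosis and the G2/M transition were lower by estimate in every case. All 36 tested members had a fold change below 0, 27 of them at an unadjusted p under 0.05 and 28 with every thrombin library below every control library. Over all tested genes, 2.98% were lower at that p and 6.96% lay wholly below control. None was called with the filter on low counts, and without it edgeR called KIF20A, CCNB1 and DLGAP5, a protein of the mitotic spindle named because that fit called it (adjusted p = 0.0149, 0.0373 and 0.0266). In bulk RNA, a smaller number of cells in mitosis and less of these transcripts per cell cannot be told apart. The median log2 fold change was -0.24, with members between -0.38 and -0.04. All 36 were bounded within 1.5-fold, against 77.1% of all tested genes. By level, however, 98.7% of tested genes of 30 to 100 CPM and 99.2% of those from 100 CPM were bounded within 1.5-fold as well. At 24 h 20 of the 36 had been called higher and 0 lower, against 9.05% and 8.54% of all tested genes. The mean log2 CPM of the list was 7.13, 7.20 and 7.23 in thrombin libraries 12, 13 and 14, against 7.40, 7.46 and 7.38 in control libraries. Without thrombin library 12 the members at an unadjusted p under 0.05 numbered 14. The list has a mean transcript GC of 44.8%, and with the GC offset its median was -0.20 and 28 members were lower at that p.

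KIF20A, a kinesin of cytokinesis, measured 211, 202 and 190 CPM with thrombin and 258, 273 and 238 CPM in control, a log2 fold change of -0.35 ± 0.09. CCNB1, the cyclin that drives entry into mitosis, measured 310, 339 and 334 CPM with thrombin and 387, 404 and 430 CPM in control, a log2 fold change of -0.31 ± 0.08. TOP2A, the topoisomerase that untangles chromosomes, measured 782, 879 and 876 CPM with thrombin and 1075, 1045 and 924 CPM in control. For these 3 genes no thrombin library reached a control library, and the edgeR adjusted p was 0.265, 0.371 and 0.622. MKI67, the proliferation marker Ki-67, measured 882, 900 and 889 CPM with thrombin and 1131, 1079 and 655 CPM in control, so control library 14 lay below all thrombin libraries. Of the 36 genes of DNA replication and the G1/S transition, 16 lay above 0 and 20 below, with a median of -0.02.

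Many mitotic genes carry a CHR element near the start site, the site of the DREAM and MMB complexes that silence and activate them through the cell cycle, often with CCAAT boxes upstream. Promoters from 250 bases before to 50 after the start were taken from RefSeq (GRCh38.p14) for 31 of the 36 genes. The letters TTTGAA or TTTAAA, searched on both strands, were present in 24 of 31 (77.42%), against 16.13% of the promoters of 11609 tested genes and 23.99% of all 35116 promoters of the table. CCAAT, also on both strands, was present in 23 of 31 (74.19%), against 36.45% of tested genes and 34.61% of all. The 24 mitotic genes with the CHR letters had a median log2 fold change of -0.24 and the other 7 had -0.21. The promoters of the 3 genes above whose groups did not overlap are shown, because each holds both the CHR and the CCAAT letters. In KIF20A and CCNB1 the CHR letters lie near the start, with the CCAAT letters upstream of them. In TOP2A the CHR letters lie farther from the start, with CCAAT letters both upstream and downstream of them. Capitals mark the CHR letters and the CCAAT letters on either strand.

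KIF20A, chr5:138178862-138179161 (+ strand): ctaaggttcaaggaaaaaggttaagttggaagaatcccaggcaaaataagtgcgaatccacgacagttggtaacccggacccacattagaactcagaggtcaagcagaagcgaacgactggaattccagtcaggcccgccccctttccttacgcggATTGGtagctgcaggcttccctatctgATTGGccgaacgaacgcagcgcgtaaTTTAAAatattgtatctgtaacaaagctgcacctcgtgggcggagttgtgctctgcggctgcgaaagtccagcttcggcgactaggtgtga
CCNB1, chr5:69166900-69167199 (+ strand): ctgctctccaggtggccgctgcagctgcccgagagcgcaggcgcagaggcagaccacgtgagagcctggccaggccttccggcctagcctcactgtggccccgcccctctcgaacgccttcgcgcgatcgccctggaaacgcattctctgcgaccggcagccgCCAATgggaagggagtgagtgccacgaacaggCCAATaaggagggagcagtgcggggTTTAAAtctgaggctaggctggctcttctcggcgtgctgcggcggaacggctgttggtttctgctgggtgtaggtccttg
TOP2A, chr17:40417847-40418146 (- strand): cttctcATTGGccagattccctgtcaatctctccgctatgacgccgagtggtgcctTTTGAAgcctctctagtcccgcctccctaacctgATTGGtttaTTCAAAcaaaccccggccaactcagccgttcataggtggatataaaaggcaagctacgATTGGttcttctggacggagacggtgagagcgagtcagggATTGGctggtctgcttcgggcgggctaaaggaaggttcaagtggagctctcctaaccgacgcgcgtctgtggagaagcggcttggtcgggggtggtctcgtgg

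Interferon-stimulated genes lay mostly above control. Of 31 tested members, 27 lay above 0, 12 were higher at an unadjusted p under 0.05 and 0 lower, and 11 had every thrombin library above every control library. Over all tested genes, 4.25% were higher at that p and 7.28% lay wholly above control. None was called with the filter on low counts, and without it edgeR called IFIT2 and ISG15 (adjusted p = 0.00441 and 0.0187). The count of 12 was 6 without thrombin library 13, 7 without control library 12 and 11 with the GC offset, under which the median was 0.14. Without the offset the median log2 fold change was 0.18, with members between -0.11 and 1.14. The mean log2 CPM of the list was 4.56, 4.62 and 4.59 in thrombin libraries 12, 13 and 14 and 4.32, 4.32 and 4.40 in control libraries. IFIT2, an antiviral protein that binds RNA, measured 20.7, 29.5 and 35.0 CPM with thrombin and 20.2, 15.0 and 20.7 CPM in control. Thrombin library 12 was level with control library 14, and the estimate was 0.61 ± 0.16 (edgeR adjusted p = 0.295, and 0.0195 without the libraries numbered 12). ISG20, an antiviral exonuclease, measured 12.5, 13.7 and 12.1 CPM with thrombin and 9.19, 7.69 and 10.1 CPM in control, a log2 fold change of 0.50 ± 0.14 without overlap. The abundant member SAMD9 was at -0.11 ± 0.15. At 24 h 2 members were called higher and 9 lower, against 9.05% and 8.54% of all tested genes.

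Interferon acts through a response element, here searched on both strands as GAAA with a second GAAA after 2 bases of any kind. It was present in 15 of the 24 interferon-stimulated genes with a RefSeq promoter (62.50%), against 2.868% of tested genes and 3.574% of all promoters. The 15 with it had a median log2 fold change of 0.20 and the other 9 had 0.13. The promoter of ISG20 and that of ISG15, a ubiquitin-like modifier added to show overlapping matches and chosen after its values were seen, are printed with the matches in capitals. ISG15 measured 64.6, 55.8 and 60.4 CPM with thrombin and 39.6, 38.1 and 53.3 CPM in control.

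ISG20, chr15:88638766-88639065 (+ strand): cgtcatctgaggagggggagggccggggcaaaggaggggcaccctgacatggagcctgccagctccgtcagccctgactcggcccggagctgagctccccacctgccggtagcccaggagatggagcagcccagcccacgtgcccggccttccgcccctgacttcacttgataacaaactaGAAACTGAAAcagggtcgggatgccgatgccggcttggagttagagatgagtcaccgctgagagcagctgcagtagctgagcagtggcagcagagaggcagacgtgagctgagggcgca
ISG15, chr1:1013247-1013546 (+ strand): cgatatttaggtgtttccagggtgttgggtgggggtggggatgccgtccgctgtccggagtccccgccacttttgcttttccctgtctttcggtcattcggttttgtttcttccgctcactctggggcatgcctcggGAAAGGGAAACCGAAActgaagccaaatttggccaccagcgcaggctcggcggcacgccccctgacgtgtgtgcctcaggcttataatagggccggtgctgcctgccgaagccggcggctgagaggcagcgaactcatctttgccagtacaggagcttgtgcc

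Targets of NF-kappa-B, the inflammatory transcription factor, lay above 0 in 20 of 21 tested members, with a median log2 fold change of 0.19, and 3 were higher and 0 lower at an unadjusted p under 0.05. Over all tested genes 52.4% lay above 0, the median was 0.01, and 4.25% were higher and 2.98% lower at that p. ICAM1, a leukocyte adhesion molecule, measured 23.6, 23.6 and 20.7 CPM with thrombin and 16.1, 12.4 and 19.4 CPM in control, a log2 fold change of 0.50 ± 0.15. NFKBIA, the inhibitor that NF-kappa-B induces, was at 0.26 ± 0.11, and the abundant members TNFAIP2 and NFKB2 were at 0.20 ± 0.13 and 0.18 ± 0.10. Immediate early genes lay above 0 in 21 of 25, with a median of 0.18 and 3 higher and 0 lower at an unadjusted p under 0.05. KLF4, a zinc-finger transcription factor, measured 33.3, 41.4 and 39.8 CPM with thrombin and 26.9, 20.5 and 32.0 CPM in control, a log2 fold change of 0.53 ± 0.16, and was called by edgeR only without the filter (adjusted p = 0.00812). ZFP36, which marks cytokine mRNA for decay, was at 0.37 ± 0.13, and JUN and IER5 were at 0.08 ± 0.13 and 0.12 ± 0.10. For both lists the mean over members was higher in every thrombin library than in every control library. With the GC offset their medians were 0.10 for NF-kappa-B targets and 0.12 for immediate early genes, and without control library 14 the median of NF-kappa-B targets was 0.11.

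Ribosome biogenesis genes lay below 0 in 27 of 30, with a median log2 fold change of -0.09 and 0 higher and 2 lower at an unadjusted p under 0.05, and all 30 were bounded within 1.5-fold. With the GC offset 29 lay below 0 and 8 were lower at that p. Over all tested genes 47.6% lay below 0 and 2.98% were lower at that p, or 50.2% and 3.99% with the offset. DKC1, the pseudouridine synthase of ribosomal RNA, measured 79.2, 92.4 and 96.6 CPM with thrombin and 106, 107 and 106 CPM in control, and UTP15, of the small-subunit processome, was at -0.27 ± 0.12. The nucleolar proteins NCL and NOP56 were at -0.12 ± 0.07 and -0.10 ± 0.07. Cytosolic ribosomal protein genes lay above 0 in 30 of 32, with a median of 0.16 and by edgeR 0 at an unadjusted p under 0.05, and their many pseudogenes leave their levels uncertain. Their median was 0.05 without control library 12 and 0.25 without control library 14. Of the p53 targets, 15 of 23 lay above 0, with 4 higher and 1 lower at an unadjusted p under 0.05, where 4.25% and 2.98% of all tested genes were. BBC3, the pro-death protein PUMA, measured 30.9, 27.5 and 25.6 CPM with thrombin and 16.0, 18.0 and 22.3 CPM in control, and CDKN1A belongs to this list as well. GADD45A and TNFRSF10B were at -0.01 ± 0.09 and 0.06 ± 0.09.

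Collagen genes lay above 0 in 14 of 20, with 6 higher and 0 lower at an unadjusted p under 0.05 and a median log2 fold change of 0.12. Over all tested genes 52.4% lay above 0, 4.25% were higher and 2.98% lower at that p, and the median was 0.01. With the GC offset 2 collagen genes were higher and 1 lower at that p, and their median was 0.10. Their median was -0.06 without thrombin library 12 and 0.28 without control library 12. COL16A1, a collagen bound to fibrils, measured 23, 21 and 20.6 CPM with thrombin and 15.6, 13.7 and 16.5 CPM in control, which is 0.49 ± 0.12 on the log2 scale (edgeR adjusted p = 0.249). COL4A2, a basement membrane chain, was at 0.03 ± 0.12, and COL1A1 and COL4A5 are given above. The mean of the collagen list overlapped between the groups, and in both groups it was highest in library 12 and lowest in library 14. Targets of serum response factor and its cofactor MRTF had a median of 0.01 at 48 h and of -0.04 with the GC offset. Of the 24, 23 were called higher at 24 h, against 9.05% of all tested genes. At 48 h 1 was higher and 1 lower at an unadjusted p under 0.05. Bounded within 1.5-fold were 21, against 77.1% of all tested genes. ACTG2, enteric smooth muscle actin, was at 0.51 ± 0.22, and FLNA and MYH9, of the actin network, were at 0.11 ± 0.08 and -0.01 ± 0.08. YAP and TAZ targets had a median of 0.00 and of -0.03 with the GC offset, with 20 of 21 bounded within 1.5-fold. All 25 cholesterol synthesis and uptake genes were bounded within 1.5-fold, with a median of -0.04 at 48 h, or 0.02 without thrombin library 12. At 24 h their median was -0.54 and 20 were called lower, against 8.54% of all tested genes. The share bounded rose with level, to 99.2% of tested genes from 100 CPM, so the bounded counts of these lists follow in part from level.

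**Figure D4:**
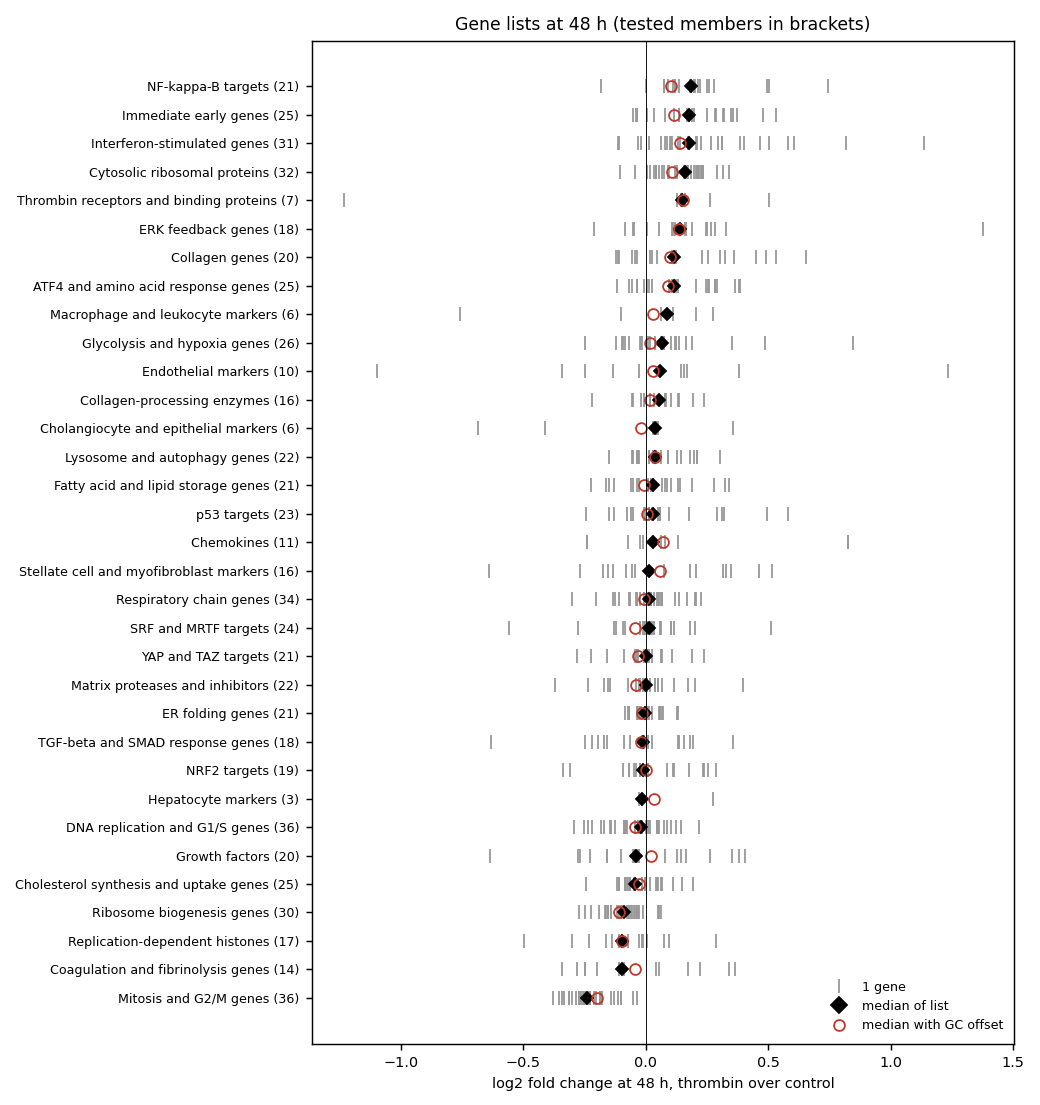
The log2 fold change of thrombin over control at 48 h for the tested members of the 33 gene lists (ticks), with the median of each list (black diamond) and the median after an offset for transcript GC content (red circle). The mitosis list has the lowest median, at -0.24, and the NF-kappa-B list the highest, at 0.19.

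**Figure D5:**
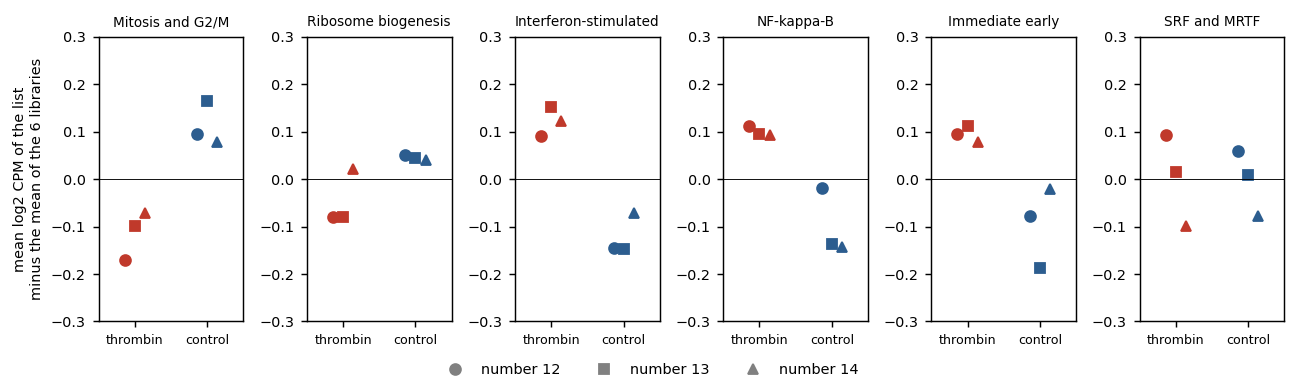
The mean log2 CPM of 6 lists in each 48 h library, relative to the mean of the 6 libraries, thrombin left of control, with the marker shape giving the library number. The groups do not overlap in any panel but that of the serum response factor targets.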

How the data were processed

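Gene counts of 18 poly(A)-selected libraries were deposited by the authors as whole-number counts per gene symbol in 1 table, with no normalization visible in the values. The tools listed per the submitters' processing notes are Bowtie2 2.5.4, cutadapt 4.9, DESeq2 and SAMtools 1.21, with GRCh38 (hg38) as the build. The counter, annotation and strand setting are not given in the sources used here, so genes that overlap another or have near-identical copies are uncertain. All 18 columns were matched to libraries by title, and 4439 genes without a count in any library were not tested.

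Here the counts were fitted with edgeR 4.0.16 (R 4.3.3): filterByExpr over the 6 groups (minimum count 10, total 15), TMM scaling and quasi-likelihood testing of 1 mean for each group over all 18 libraries, which gave 12 residual degrees of freedom and a biological coefficient of variation of 9.07%. The contrasts were thrombin minus control at 48 h, the same at 24 h, and the 48 h effect minus the 24 h effect, 2-sided, with Benjamini-Hochberg adjustment over 15353 genes. "Called" means an adjusted p under 0.05. Standard errors and 95% intervals came from the fitted model, and bounds from equivalence tests. Levels are TMM-scaled CPM, and log2 CPM used a prior count of 2. Standard errors were larger for genes with fewer counts. Differences of same-numbered libraries describe single libraries and have no test.

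Named genes were the 10 of smallest p in each direction at 48 h, 22 anchor genes, the 8 largest called changes in each direction at 24 h of at least 1 CPM, and for each list described the 2 members of smallest p and the 2 most abundant. Some genes that this rule names are not reported here. Others are said to be chosen after their values were seen. The members and the 33 gene lists (741 entries, 738 in the table) were chosen with earlier results of these data known, and lists are described by counts and medians, with the shares over all tested genes given beside them. Promoters were taken from RefSeq. Alternatives were DESeq2 1.42.0, limma-voom (limma 3.58.1), other size factors and filters, the 48 h libraries alone, a replicate block, libraries left out and a GC offset.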

Additional observations from a re-analysis of the deposited data

Results flagged for a closer look

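The thrombin effect at 48 h differed from the effect at 24 h (edgeR adjusted p under 0.05 for the difference itself) for 61 of the 82 named genes. For 56 of the 61 the 48 h and 24 h fold changes had opposite signs. Of the differences, given as the log2 fold change at 48 h minus that at 24 h, 34 were below 0 and 27 above. All of them rest on the 24 h and 48 h labels as given, and the 24 h labels are in doubt. Many of the 82 genes were chosen by their p at 48 h or their change at 24 h, and both enter the difference. The counts of 61 and 56 are therefore partly fixed by the choice of genes. Among all 15353 tested genes the difference was called for 2126 (13.8%).

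Among the genes with the smallest p at 48 h the difference was 1.38 for OLFML2A, 1.33 for CSMD2, 1.28 for NPEPL1, 1.20 for HS1BP3, 1.14 for CDKN1A, 1.06 for COL4A5, 0.96 for UAP1L1, 0.92 for OLFML3, 0.77 for DOCK6, -0.74 for NUP37, -0.84 for AURKAP1, -0.91 for ANXA2P1, -1.01 for GCNT1, -1.61 for IGFBP6, -1.95 for TGFBI, -2.76 for CRISPLD2 and -3.33 for MYPN.

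Among the genes with the largest changes at 24 h it was 3.73 for SPRY1, 3.24 for PPL, 2.91 for PPARGC1A, 2.82 for KCP, 2.47 for GASK1B, 2.4 for LOC107985770, 2.13 for METTL7A, 1.88 for C3AR1, -3.06 for RELN, -3.57 for CXCL8, -3.79 for LINC01111, -4.11 for NFATC2, -4.12 for KRTAP1-5, -4.43 for KRT33B, -5.23 for KRTAP2-3 and -5.53 for NPPB.

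Among the genes of thrombin signalling, clotting and stellate cells it was 1.78 for F2RL1, 1.07 for SERPINE2, 0.96 for F2R, -0.55 for COL1A1, -0.69 for CCN2, -0.95 for CCN1, -1.10 for HBEGF, -1.42 for F3, -1.80 for PLAT, -2.17 for CCL2 and -2.80 for TAGLN.

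Among the genes named from lists it was 1.87 for KLF4, 1.39 for IFIT2, 1.26 for BBC3, 1.11 for ISG20, 0.95 for ZFP36, 0.75 for ISG15, 0.75 for COL16A1, -0.30 for NOP56, -0.44 for NCL, -0.55 for DKC1, -0.58 for TOP2A, -0.58 for CCNB1, -0.62 for MYH9, -0.75 for KIF20A, -0.83 for UTP15, -1.04 for ACTG2 and -1.18 for SAMD9.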

How the results depend on the processing

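The numbers did not pair the libraries: deviations of same-numbered thrombin and control libraries correlated at -0.04 to 0.02, below the 0.1 needed, and 2 of 6 libraries correlated best with their own number. With a replicate block, 0 genes were called higher and 1 lower (TGFBI) in all 18 libraries, and 7 higher (CDKN1A, CSMD2, MIAT, NOTCH3, OLFML2A, PLXDC1 and PPL) and 3 lower (GJA1, IGFBP6 and TGFBI) in the 6 libraries of 48 h, which without the block gave 0 higher and 2 lower (TGFBI and IGFBP6).

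Without a filter on low counts 25 genes were called higher and 25 lower, all of them genes that the filter kept, with 954 lower at an unadjusted p under 0.05 and 1787 wholly below control. DESeq2 called 9 higher and 5 lower, and the GC offset 2 and 2, with a median of 0.072 for genes called lower at 24 h. TGFBI was called in each of these and in the unblocked 48 h fit. With a stricter filter, and with RLE scaling, 0 genes were called in either direction. Without the libraries numbered 12, 4 were called higher and 1 lower, 2671 lay wholly above control and 2531 below, and the medians of the 24 h genes were -0.023 and 0.083.

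Leaving out 1 library of 48 h gave 0 called higher and 0 to 1 lower (TGFBI without control 14), 400 to 791 higher and 235 to 696 lower at an unadjusted p under 0.05, both lowest without thrombin 12, and 1568 to 2392 wholly above and 1608 to 2485 wholly below control, where 2 libraries against 3 overlap less often by construction. Genes bounded within 25% numbered 0 to 4223, within 1.5-fold 11140 to 11451, and within 2-fold 13518 to 13584. Leaving out a thrombin 24 h library, which enters through the shared filter, scaling and spread, called COL4A5, OLFML2A, IGFBP6 and TGFBI (without 12), IGFBP6 and TGFBI (without 13) or TGFBI (without 14). The 48 h minus 24 h difference was called above 0 for 732 to 1150 genes and below 0 for 733 to 1137, both lowest without control 24 h 12. Mitosis members at an unadjusted p under 0.05 numbered 14 (without thrombin 12) to 27, and interferon-stimulated ones 6 (without thrombin 13) to 11. Of 82 named fold changes, 16 changed sign in at least 1 alternative, CXCL8 without the libraries numbered 12 and the other 15 when 1 library of 48 h was left out. These were C3AR1, CCL2, CCN1, CCN2, COL1A2, COL4A2, GADD45A, GASK1B, IL6, MKI67, MYH9, PLAU, SAMD9, THBD and TIMP1. GASK1B, at -0.025 without thrombin 13 (highest 0.712, without thrombin 12), was the only 1 of the 16 with a fold change larger than its standard error. The causes of these changes were not tested. The median standard error was 0.48 under 1 CPM, 0.18 from 3 to 10 CPM and 0.09 from 100 CPM.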
